A study of Rattus norvegicus with 17 samples.

Results

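The genes of GABA and glycine transmission were examined in the hippocampus of adolescent rats after prenatal ethanol exposure. The set held 28 of the 34322 genes in the count table and was chosen by gene symbol. It comprised subunits of the GABA-A, GABA-B and glycine receptors, the enzymes and transporters that make, load, retrieve and degrade the transmitters, the scaffold protein gephyrin and 2 chloride cotransporters. RNA-seq counts were available for 17 rats aged 36 to 38 days in 3 maternal diet groups. In the ET group (n = 5, 3 males and 2 females) dams drank a liquid diet containing 6.7% ethanol from gestational day 0 to 20. In the PF group (n = 6, 3 males and 3 females) dams received the liquid diet without ethanol, pair-fed to the ethanol dams, and in the AD group (n = 6, 3 males and 3 females) dams ate standard chow ad libitum. Lab chow then replaced the liquid diets, so the ethanol diet ended before birth. Each diet group came from 1 litter, so diet and litter cannot be told apart, and p-values measure the spread between littermates.

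GABA is the main fast inhibitory transmitter of the forebrain. It is made from glutamate by the decarboxylases GAD67 (Gad1) and GAD65 (Gad2), loaded into vesicles by VGAT (Slc32a1), and acts on GABA-A receptors, which are chloride channels of several subunits, and on GABA-B receptors, which signal through G proteins. Whether opening a chloride channel inhibits a neuron depends on internal chloride, which NKCC1 (Slc12a2) raises and KCC2 (Slc12a5) lowers. Glycine acts on its own chloride channels, mostly in brainstem and spinal cord, and is also a co-agonist of NMDA receptors, so its uptake by GlyT1 (Slc6a9) bears on excitatory synapses too.

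Between 10853947 and 17498392 fragments were counted per library, with a median of 13538433. Values are given as normalized counts, scaled by TMM (a scaling that makes most genes comparable between libraries) to the mean library size. They were not divided by transcript length and compare libraries, not genes. A group of 3 libraries held much choroid plexus RNA: Ttr, the transthyretin gene of choroid epithelium, was at 87591 in ET replicate 2, 100267 in PF animal 11f6 and 112289 in AD replicate 4, against 36.1 to 14552 elsewhere. The 3 were also left out of the final analysis of the study, which kept 14. In 2 of the 6 AD libraries the Y-linked genes went against the sex label, and in none of the ET and PF libraries. The neuronal markers of hippocampus were present in every library (Prox1 of dentate granule cells between 111 and 681, Fibcd1 of CA1 pyramidal cells between 958 and 2917). ET replicate 1 had the lowest value of both, 111 and 958. It also had the highest Lamp5 (2529), which is strong in neocortex. AD replicate 6 came next for each of these genes, with Prox1 at 244, Fibcd1 at 1420 and Lamp5 at 1977.

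A gene was called where the quasi-likelihood test of edgeR gave a Benjamini-Hochberg adjusted p below 0.05 over all genes tested. Of the 28 genes, 24 had enough counts to be tested between diets. Gabra6, Gabre, Glra1 and Glra3 did not. Between ET and PF, 1 of the 24 was called, Slc6a9, higher in ET, while 5.46% of the 16088 genes tested were called and 1.25% were called higher in ET. Between ET and AD 0 of 24 were called, against a background of 0.0382% of 15700 genes. Between PF and AD 0 of 24 were called, against 6.19% of 15902 genes. At an unadjusted p below 0.05, the counts were 2 higher and 0 lower in ET than PF, 1 higher and 2 lower in ET than AD, and 1 higher and 2 lower in PF than AD, beside 14.4%, 4.57% and 17.3% of all genes in either direction. DESeq2 called the same numbers of these genes, 1, 0 and 0. None of the 24 met the threshold of the study (adjusted p below 0.01 and absolute log2 fold change above 1.5), which 2.18% of all genes met between ET and PF, 0.0127% between ET and AD and 2.02% between PF and AD. The values of ET and PF did not overlap in 1 of the 24, those of ET and AD in 0 and those of PF and AD in 0, beside 5.36%, 0.592% and 4.91% of all genes. The median log2 fold change of the 24 was -0.01 in ET against PF, beside 0.01 over all genes. The median absolute log2 fold change was 0.08 for the set and 0.09 for all genes. In ET against AD the median absolute values were 0.09 and 0.06, and in PF against AD 0.08 and 0.08. The comparisons share samples and are not independent of each other. In bulk tissue, fewer cells of a type and less RNA per cell cannot be told apart.

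**Figure D1:**
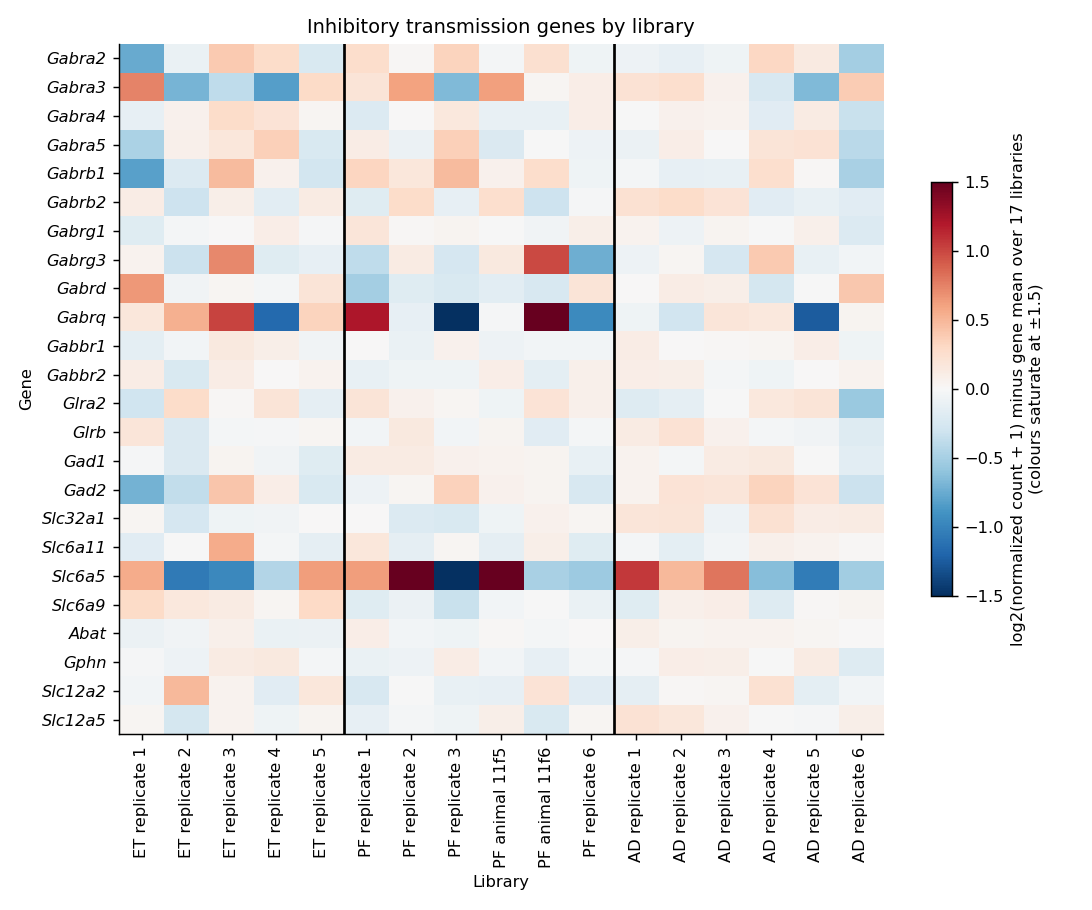
Each row is 1 of the 24 tested genes and each column 1 library; colour is the log2(normalized count + 1) minus the mean of that gene over the 17 libraries, and black lines separate ET, PF and AD. Slc6a5 and Gabrq vary most between libraries of the same diet, and ET replicate 1 is low in Gabra2, Gabrb1 and Gad2 and high in Gabra3 and Gabrd.

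**Figure D2:**
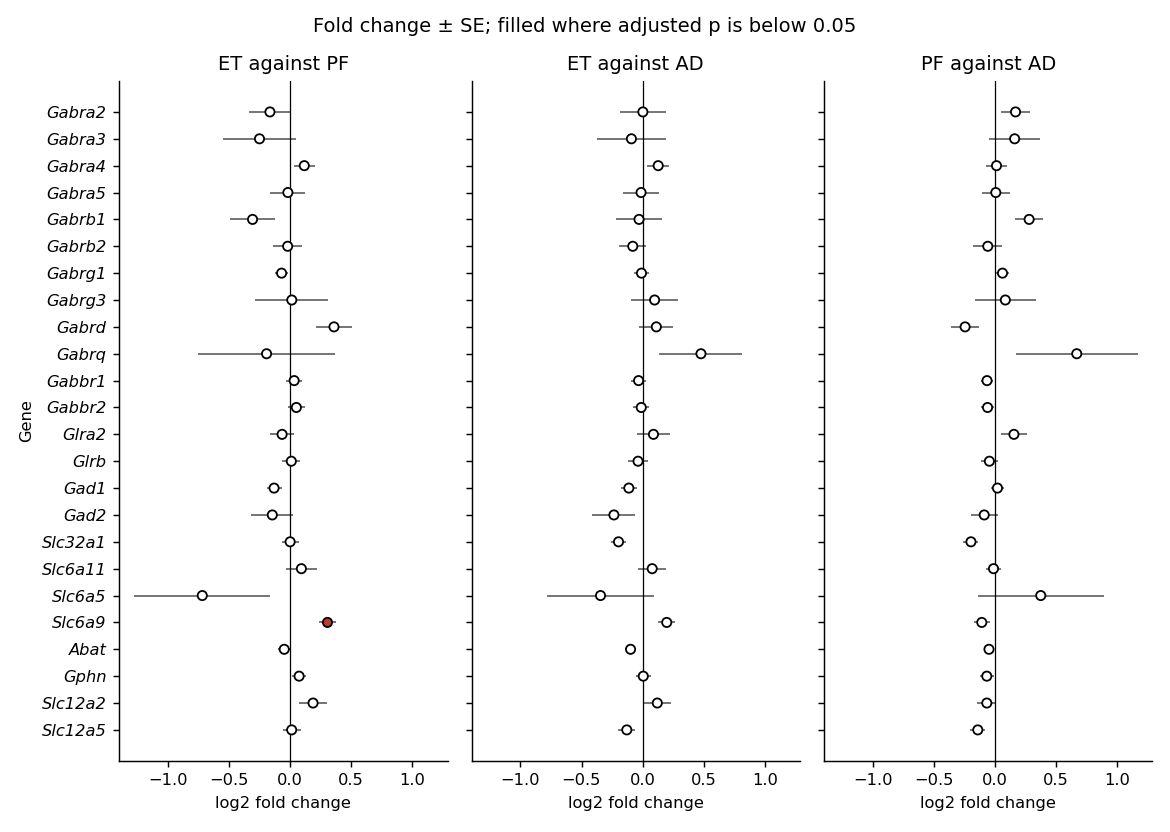
Log2 fold change of each tested gene with its standard error (horizontal axis) in the 3 diet comparisons. Slc6a9 in ET against PF, at 0.31, is the only filled point; the widest bars belong to Slc6a5 and Gabrq.

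Slc6a9 encodes GlyT1, the glycine transporter that clears glycine around glia and glutamatergic synapses. Its normalized counts in the ET libraries were 1595, 1457, 1430, 1335 and 1613. In PF the lowest was 1035, the median 1227 and the highest 1301, and in AD they were 1149, 1336 and 1402. Every ET library was above every PF library, and ET overlapped AD. The log2 fold change of ET against PF was 0.31 (SE 0.07, adjusted p = 0.018, edgeR quasi-likelihood test). Against AD it was 0.20 (SE 0.07, adjusted p = 0.952). PF against AD gave -0.11 (SE 0.06, adjusted p = 0.438). Without the 3 choroid-rich libraries the ET against PF difference was 0.33 with an adjusted p of 0.0395, and without ET replicate 1 it was 0.28. The call was lost when ET replicate 5 (adjusted p = 0.0587) or PF replicate 1 (adjusted p = 0.0542) was left out, with log2 fold changes of 0.27 and 0.29. On the opposite strand the gene overlaps Ccdc24 in the rat assembly GRCr8, and the strand setting of the counting was not given in the sources used here. Ccdc24 itself was at 4.15 to 14.9 normalized counts in all libraries.

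Genes of oligodendrocytes, the myelin-forming cells, also differed between ET and PF. Of the 5 genes of this list, Mbp (log2 fold change 0.45, adjusted p = 0.0265), Mobp (0.39, adjusted p = 0.0246) and Cnp (0.39, adjusted p = 0.0441) were called higher in ET than in PF by edgeR. Mag (0.40, adjusted p = 0.0506) and Mog (-0.06, adjusted p = 0.862) were not. The summed count of the list ranged from 164818 to 221772 in ET, 126366 to 168101 in PF and 145511 to 217603 in AD, and ET and PF overlapped through ET replicate 4 and PF replicate 6. No gene of the list was at 0. In PF against AD 1 of the 5 was called, Mag, lower in PF (-0.37, adjusted p = 0.0348). Of the 7 astrocyte genes, 1 was called higher, Gfap (0.31, adjusted p = 0.0435). Beside these counts stand 5.46% of all genes called in ET against PF and 6.19% in PF against AD. With each diet mean removed, Slc6a9 followed the oligodendrocyte list over the 17 libraries with r = 0.65 (permutation p = 0.0113, adjusted over 288 relations 0.0775) and rho = 0.59 (permutation p = 0.0245, adjusted 0.151). Neither passed the correction. Leaving out the 2 libraries with the most extreme Slc6a9 gave r = 0.74. The part of oligodendrocyte content in the Slc6a9 difference was not tested.

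**Figure D3:**
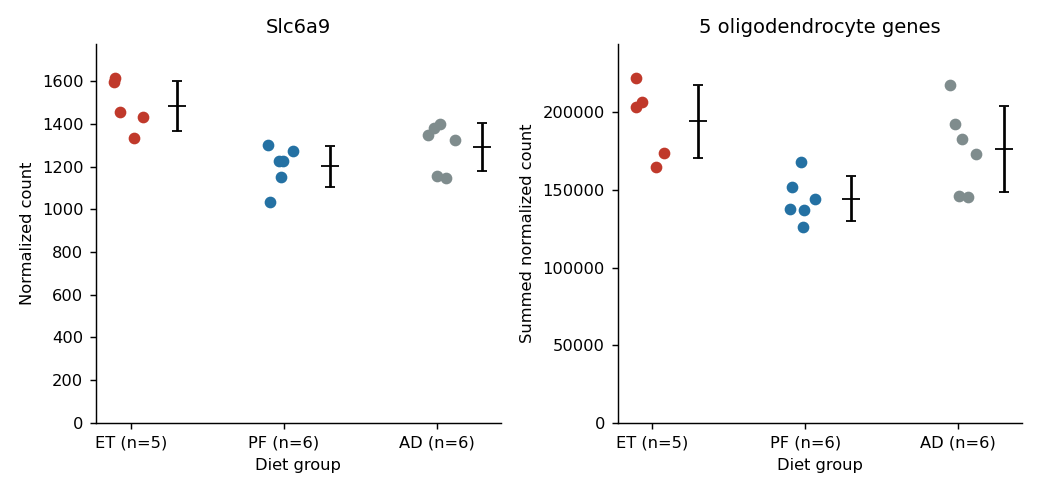
Normalized count of Slc6a9 (left) and summed normalized count of Mbp, Mog, Mag, Mobp and Cnp (right); points are libraries, and the bar shows mean and SD. Slc6a9 is higher in all ET libraries than in all PF libraries; the summed count overlaps slightly between ET (164818 to 221772) and PF (126366 to 168101), and both measures overlap between ET and AD.

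The start region of Slc6a9 is shown because it was the sole gene of the set called between diets. The sequence is from RefSeq on GRCr8 (chr5:136659826-136660125, plus strand), 250 bases before to 50 after the annotated start, with capitals marking the GC box GGGCGG.
Slc6a9: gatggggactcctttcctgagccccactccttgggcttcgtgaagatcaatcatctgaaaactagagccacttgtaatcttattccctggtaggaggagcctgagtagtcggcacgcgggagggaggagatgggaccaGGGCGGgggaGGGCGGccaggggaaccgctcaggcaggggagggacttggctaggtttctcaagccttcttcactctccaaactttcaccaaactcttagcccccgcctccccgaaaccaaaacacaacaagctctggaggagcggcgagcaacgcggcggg
Both strands were searched for GGGCGG, the TATA box TATAAA, the E-box CACGTG and the cAMP response element TGACGTCA. The window held 2 GC boxes, which do not overlap, and none of the other 3. Of 33469 RefSeq start windows of this length, 33.1% held a GC box, 14.2% a TATA box, 6.42% this E-box and 1.83% this cAMP element. The GC content of the window was 59.0%.

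The other glycine genes were further from a call. Slc6a5 encodes GlyT2, the transporter of glycinergic nerve endings. Its counts were low, between 11.1 and 108, and it had the widest spread between libraries of any tested gene of the set (biological coefficient of variation 0.65). The log2 difference of ET from PF was -0.72 (SE 0.56), with an adjusted p of 0.669. Glrb, the beta subunit that anchors glycine receptors to gephyrin, was at 2941, 2232, 2536, 2547 and 2649 in ET. In PF it had a lowest value of 2293, a median of 2526 and a highest of 2857, and in AD 2272, 2624 and 3012. The groups overlapped, with 0.01 (SE 0.07) in ET against PF. Glra2, the alpha subunit known from the immature brain, lay between 158 and 282, with log2 fold changes of -0.07, 0.09 and 0.15 in ET against PF, ET against AD and PF against AD. Glra1 reached at most 11.6 and Glra3 at most 6.5 normalized counts in any library.

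Transmitter synthesis and vesicle loading showed no call. Gad1 was at 2955, 2580, 3073, 2902 and 2653 in ET. In PF the lowest value was 2771, the median 3119 and the highest 3272, and in AD 2696, 3050 and 3332. The log2 fold change of ET against PF was -0.13 (SE 0.06, adjusted p = 0.36 by edgeR). Gad2 was at 620, 782, 1351, 1083 and 864 in ET. In PF its values ran from 856 through a median of 1041 to 1285, and in AD from 809 through 1158 to 1278. ET replicates 1 and 2 were below every other library for Gad2, and ET replicate 3 was the highest of the 17. The ratio of Gad1 to Gad2, the 2 routes of GABA synthesis, was 3.22 ± 0.95 in ET (SD, n = 5), 3.02 ± 0.33 in PF (SD, n = 6) and 2.80 ± 0.31 in AD (SD, n = 6). None of the 3 differences passed an exact two-sided permutation test of mean log2 ratios. Exact permutation p-values were 0.794 for ET against PF, 0.424 for ET against AD and 0.284 for PF against AD, and adjusted over 6 ratio tests 0.794, 0.636 and 0.636. ET replicate 1, at 4.77, had the highest ratio of all, and without it the log2 ratio difference of ET was -0.099 from PF and 0.0076 from AD, in place of 0.055 and 0.16.

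Slc32a1, the vesicular transporter shared by GABA and glycine, had the smallest p of the set in both comparisons with AD. Its values in ET were 810, 662, 755, 760 and 795. In PF the lowest was 674, the median 775 and the highest 825, and in AD 753, 878 and 931. The groups overlapped through 1 AD library, replicate 3, the lowest of its group. The log2 fold change was -0.20 (SE 0.07, adjusted p = 0.936) in ET against AD, -0.20 (SE 0.06, adjusted p = 0.0871) in PF against AD, and 0.00 (SE 0.07) in ET against PF. Without AD replicate 3, Slc32a1 was called lower in PF than in AD, at -0.23 with an adjusted p of 0.0373. Among 17 interneuron markers, 16 of which were tested, Htr3a, the serotonin-gated channel of a class of interneurons, was called lower in ET than in PF (log2 fold change -0.65, adjusted p = 0.0493), a count of 1 beside 5.46% of all genes, and none was called in the other comparisons. The summed count of the list was 12456 to 16137 in ET, 14125 to 14980 in PF and 13767 to 16035 in AD. The list includes Lamp5, which is strong in neocortex, so it is not specific to interneurons of the hippocampus. Lamp5 was at 2529 in ET replicate 1, the library with the highest sum.

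Neither Slc6a11 nor Abat, the genes of GABA uptake and breakdown in the set, was called. Slc6a11 encodes GAT3, the GABA transporter of astrocytes, and was at 644, 720, 1064, 712 and 661 in ET. In PF the lowest value was 640, the median 700.0 and the highest 817, and in AD 652, 722 and 766. ET replicate 3 alone lay above all PF and AD libraries, and the ET against PF difference was 0.09 (SE 0.13), or -0.063 without that library. Abat, the transaminase that degrades GABA, was the least variable gene of the set, with a coefficient of variation of 0.03. Its ET values were 3752, 3841, 4201, 3731 and 3751. In PF they ran from 3811 through a median of 3950 to 4285, and in AD from 4022 through 4117 to 4243. In 4 of 5 ET libraries Abat was below every AD library, ET replicate 3 being the exception. The log2 fold change of ET against AD was -0.10 (SE 0.04), with an unadjusted p of 0.0425 and an adjusted p of 1 by edgeR.

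The GABA-A alpha subunits help to set where a receptor sits and how it responds to benzodiazepines. No alpha subunit was called in any diet comparison, but they differed widely between libraries. Gabra2 was at 1527, 2405, 3399, 3131 and 2200 in ET. In PF its lowest value was 2477, the median 2834 and the highest 3246, and in AD 1811, 2464 and 3196. The group values overlapped, and ET held both the lowest and the highest library. Gabra5, the alpha subunit of extrasynaptic receptors on hippocampal pyramidal cells, was at 1986, 2925, 3111, 3553 and 2354 in ET. It ran from 2372 through a median of 2690 to 3544 in PF, and from 2091 through 2880 to 3210 in AD. Again ET held both extremes, and ET against PF was -0.17 (SE 0.17) for Gabra2 and -0.02 (SE 0.14) for Gabra5. Leaving out 1 library gave -0.30 (ET replicate 3) to -0.030 (ET replicate 1) for Gabra2, and -0.12 (ET replicate 4) to 0.080 (ET replicate 1) for Gabra5. Gabra4, known from dentate granule cells, lay between 1687 and 2566 with a difference of 0.12 (SE 0.08) in ET against PF. Gabra3 lay between 447 and 1333, a 2.98-fold span, with a difference of -0.25 (SE 0.30). Gabra6, the alpha subunit of cerebellar granule cells, was at 23.3 in ET replicate 1 and at 2.92 to 9.75 in all other libraries.

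The beta subunits complete the binding site for GABA. Gabrb1 was at 1955, 2970, 4783, 3580 and 2847 in ET. In PF the lowest value was 3293, the median 3992 and the highest 4775, and in AD 2448, 3278 and 4090. PF lay highest but overlapped both other groups. The log2 difference was 0.28 (SE 0.11) in PF against AD, with an adjusted p of 0.21 by edgeR. In ET against PF it was -0.31 (SE 0.18), with an adjusted p of 0.531. Gabrb2 lay between 2281 and 3448, with log2 fold changes of -0.02, -0.08 and -0.06 in ET against PF, ET against AD and PF against AD.

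Gabrd encodes the delta subunit of extrasynaptic receptors that carry tonic inhibition. Its ET values were 761, 467, 493, 475 and 552. In PF they ran from 339 through a median of 420 to 555, and in AD from 403 through 499 to 640. Of the 5 ET libraries, 4 lay within the PF range and replicate 1 lay above it. The log2 fold change was 0.36 in ET against PF (SE 0.14, unadjusted p = 0.0286, adjusted p = 0.256 by edgeR), 0.11 (SE 0.14) in ET against AD and -0.24 (SE 0.12) in PF against AD. Without ET replicate 1 the ET against PF value was 0.21. The gamma subunits Gabrg1 (1639 to 2133) and Gabrg3 (22.2 to 75.7) differed between ET and PF by -0.07 and 0.01. The rarer subunits Gabrq (theta) and Gabre (epsilon) lay between 4.85 and 59.7 and between 2.32 and 20.6. Gabrq reached its highest value in PF animal 11f6 and Gabre in ET replicate 2, both choroid-rich libraries. The other choroid-rich library, AD replicate 4, was at 18.4 for Gabrq and 3.38 for Gabre, within the range of the remaining AD libraries.

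GABA-B receptors need both of their subunits, Gabbr1 and Gabbr2. Gabbr1 was at 12246, 13171, 15082, 14511 and 13143 in ET. In PF it ran from 12679 through a median of 13223 to 14170, and in AD from 13003 through 13828 to 14680. The groups overlapped and ET against PF gave 0.03 (SE 0.06). Gabbr2 lay between 4256 and 5395 and gave 0.05 (SE 0.07). Gphn, the gephyrin scaffold of inhibitory synapses, was at 1211, 1155, 1334, 1354 and 1193 in ET, between 1125 and 1315 in PF with a median of 1170, and between 1072 and 1333 in AD with a median of 1261. It also overlapped between groups, with 0.07 (SE 0.06) in ET against PF.

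The chloride cotransporters were read singly and as a ratio. Slc12a5 (KCC2) was at 7061, 5761, 7181, 6626 and 7091 in ET. In PF the lowest value was 5915, the median 6699 and the highest 7370, and in AD 6847, 7313 and 8031. AD lay highest but overlapped both other groups, and PF against AD gave -0.14 (SE 0.06, unadjusted p = 0.0406, adjusted p = 0.262 by edgeR). Slc12a2 (NKCC1) was at 2129, 3073, 2267, 1951 and 2469 in ET. In PF it ran from 1857 through a median of 2017 to 2515, and in AD from 1978 through 2169 to 2562. The log2 fold change of ET against PF was 0.19 (SE 0.11, adjusted p = 0.542), and 0.076 without ET replicate 2.

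The ratio of Slc12a5 to Slc12a2 was 2.93 ± 0.62 in ET (SD, n = 5), 3.24 ± 0.49 in PF (SD, n = 6) and 3.40 ± 0.44 in AD (SD, n = 6). The exact two-sided permutation p-values were 0.422 for ET against PF, 0.177 for ET against AD and 0.565 for PF against AD, or 0.636, 0.636 and 0.678 after adjustment over 6 ratio tests. Without ET replicate 2 the log2 ratio difference moved from -0.17 to -0.013 for ET against PF, while that of ET against AD moved from -0.24 to -0.087, and without PF animal 11f6 it was -0.26 in ET against PF. In each group the lowest ratio belonged to the choroid-rich library: 1.87 in ET replicate 2, 2.35 in PF animal 11f6 and 2.68 in AD replicate 4. The same 3 libraries had the highest Slc12a2 of their groups. Choroid epithelium is known to express Slc12a2 strongly. Because the 3 libraries stand apart, the relation with the 10 choroid genes was computed over the other 14. There it was r = 0.22 for Slc12a2 (permutation p = 0.469, rho = 0.35, permutation p = 0.263) and r = -0.34 for Slc12a5 (permutation p = 0.285, rho = -0.26, permutation p = 0.41). Without the 2 most extreme libraries r was 0.23 and -0.39, and both r had an adjusted p of 0.469 over the 2 relations. Over all 17 libraries both relations, positive for Slc12a2 and negative for Slc12a5, had an adjusted p below 0.05 for r, but a pooled r would rest on the 3 libraries that stand apart and is not given. The part of choroid tissue in the ratio was not tested.

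**Figure D4:**
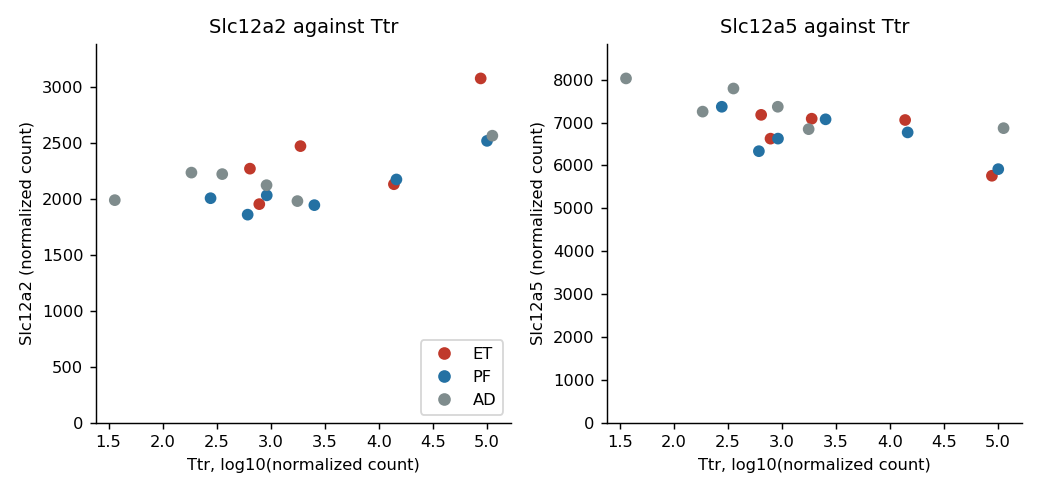
Normalized counts of Slc12a2 (left) and Slc12a5 (right) against log10 of the Ttr count, 1 point a library, coloured by diet. The 3 libraries at the right, with Ttr of 87591 or more, hold the highest Slc12a2 of each diet group.

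Beyond diet, the set varied more between littermates than most genes. The median biological coefficient of variation within diet groups was 0.13 for the 24 tested genes and 0.07 over 16265 genes. It lay above the 80th percentile in 10 of the 24. Slc6a5, Gabrq, Gabra3 and Gabrg3 were above the 90th.

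With diet means removed, 36 of 276 pairs of genes were correlated at an adjusted permutation p below 0.05, 27 positively and 9 negatively. The share among pairs of all genes was not computed, so the count says nothing particular to this set. Gabra2 and Gabrb1 rose and fell together, with r = 0.97 (permutation p = 1e-05, the smallest that 100000 resamples can give, adjusted p = 0.00069) and rho = 0.98 (permutation p = 1e-05, adjusted p = 0.00092). Leaving out the 2 libraries farthest from the median Gabra2 gave r = 0.96, and over the 14 libraries without the choroid-rich ones it was 0.97. In the assembly GRCr8 the 2 genes are near neighbours on chromosome 14, in a cluster that runs Gabrb1, Gabra4, Gabra2 and Gabrg1. Gabra4, which lies between them, had r = 0.56 with Gabra2 (permutation p = 0.0328, adjusted p = 0.142, rho = 0.45, permutation p = 0.0895), with r = 0.35 without the 2 farthest libraries and r = 0.73 over the 14. Gabra5, on another chromosome, followed Gabra2 with r = 0.90 (permutation p = 1e-05, adjusted p = 0.00069) and rho = 0.88 (permutation p = 6e-05), and r = 0.89 without the 2 farthest libraries.

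Gabra3 and Gabrd moved the other way. Gabra3 against Gabra5 gave r = -0.88 (permutation p = 3e-05, adjusted p = 0.00166) and rho = -0.88 (permutation p = 5e-05), with r = -0.81 without the 2 farthest libraries. Gabrd against Gabra2 gave r = -0.83 (permutation p = 0.00013, adjusted p = 0.0046) and rho = -0.82 (permutation p = 0.00032), with r = -0.79 after leaving out the same number. Gabra3 and Slc6a5 were high in the same libraries, with r = 0.79 (permutation p = 0.00022, adjusted p = 0.00552), rho = 0.84 (permutation p = 0.00012) and r = 0.74 without the 2 farthest.

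**Figure D5:**
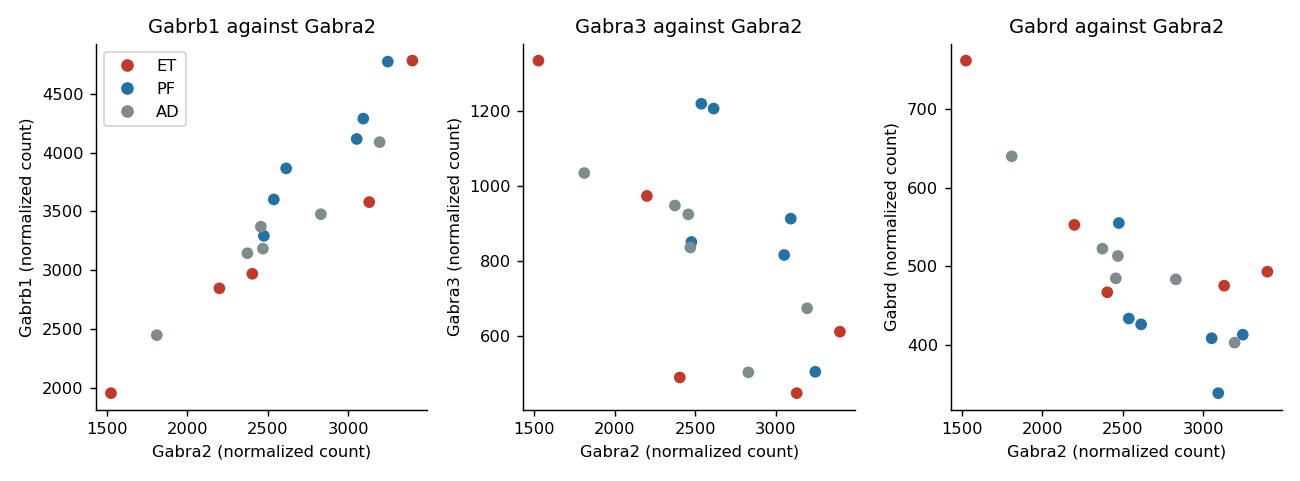
Normalized counts of Gabrb1, Gabra3 and Gabrd against Gabra2, 1 point a library, coloured by diet. Gabrb1 rises with Gabra2 while Gabra3 and Gabrd fall, within each diet group; ET replicate 1 is the point at the far left.

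The start regions of Gabra5 and Gabra3, the pair with the strongest negative relation above, are shown beside each other. They are from RefSeq on GRCr8, Gabra5 at chr1:117516557-117516856 and Gabra3 at chrX:155543821-155544120, both on the minus strand and printed 5′ to 3′ along the gene. Capitals mark a match to the GC box motif in Gabra5 and to the TATA motif in Gabra3, each read on the opposite strand. The match in Gabra3 lies in the upstream part of its window, and 14.2% of all start windows held that motif. A match of letters does not show a working element.
Gabra5: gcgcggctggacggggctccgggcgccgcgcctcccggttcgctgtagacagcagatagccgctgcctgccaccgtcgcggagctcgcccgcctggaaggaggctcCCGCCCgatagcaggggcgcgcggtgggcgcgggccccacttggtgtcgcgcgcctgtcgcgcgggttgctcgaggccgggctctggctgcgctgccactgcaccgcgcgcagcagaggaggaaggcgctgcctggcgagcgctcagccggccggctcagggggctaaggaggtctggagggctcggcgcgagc
Gabra3: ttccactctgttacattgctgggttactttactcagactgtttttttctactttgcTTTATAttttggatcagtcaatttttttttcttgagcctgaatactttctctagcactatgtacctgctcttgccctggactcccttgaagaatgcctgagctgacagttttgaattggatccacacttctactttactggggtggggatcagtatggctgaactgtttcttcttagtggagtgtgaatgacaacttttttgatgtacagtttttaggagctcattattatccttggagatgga
The same 4 motifs were searched as for Slc6a9. Each window held 1 match, the one in capitals, and none of the other 3 motifs. The GC content was 76.3% for Gabra5 and 39.3% for Gabra3, on either side of the 59.0% of Slc6a9.

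Relations with markers of cell types were also computed. Of 288 relations between the 24 genes and 12 marker lists, 34 passed an adjusted permutation p below 0.05, of which 3 were with the choroid list (Slc12a2, Slc12a5 and Gabbr2). Gabra3 was inversely related to the dentate granule cell genes, with r = -0.87 (permutation p = 5e-05, adjusted p = 0.0048), rho = -0.86 (permutation p = 3e-05) and r = -0.80 without the 2 farthest libraries. Gabra5 followed the CA pyramidal cell genes with r = 0.91 (permutation p = 4e-05, adjusted p = 0.0048), rho = 0.90 (permutation p = 6e-05) and r = 0.84 without the 2 farthest. Gabrd followed the oligodendrocyte genes with r = 0.85 (permutation p = 2e-05, adjusted p = 0.0048), rho = 0.88 (permutation p = 4e-05) and r = 0.83 without the 2 farthest. Gabra2 went against the oligodendrocyte genes with r = -0.79 (permutation p = 0.00034, adjusted p = 0.00946), rho = -0.79 (permutation p = 0.00093) and r = -0.80 without the 2 farthest. Gabra4 went against the interneuron genes with r = -0.81 (permutation p = 0.00011, adjusted p = 0.00768), rho = -0.80 (permutation p = 0.00028) and r = -0.80 without the 2 farthest. The part of dissection or cell composition in these relations was not tested. The summed dentate list ranged from 859 to 2043 in ET, 1117 to 2025 in PF and 1292 to 1915 in AD, and the CA list from 9874 to 14090, 10646 to 14148 and 10485 to 14096.

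Sex was examined in the ET and PF groups. Here Gabre and Glra1 also had enough counts to be tested. Of 26 genes of the set tested, 0 were called between males and females with diet as a covariate, while 0.0479% of 16705 genes were. By edgeR, 1 of the 26 had an unadjusted p below 0.05, Gad1, at a log2 difference of males from females of -0.13 (SE 0.05) and an adjusted p of 1.00, beside 1.9% of all genes. For the interaction of sex and diet, 0 of the 26 and 0 of all genes were called. There 1 of the 26 had an unadjusted p below 0.05, Gabrd (log2 difference -0.59, SE 0.26, adjusted p = 1.00), and 1.53% of all genes did. DESeq2 also called 0 of the set in both.

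Among 53 further genes of these pathways, 48 were tested. Between ET and PF, 1 was called higher and 1 lower, beside 5.46% of all genes called. In PF against AD 1 was called, beside 6.19% of all genes, and in ET against AD 0, beside 0.0382%. The called genes were of the chloride cotransport list, which had 10 tested genes. Oxsr1, the kinase that acts on NKCC1 and KCC2, was higher in ET (log2 fold change 0.20, SE 0.05, adjusted p = 0.0303 by edgeR), at 1175 to 1342 in ET, 1014 to 1153 in PF and 1006 to 1257 in AD. Slc12a3, known as the thiazide-sensitive cotransporter of the kidney, was lower in ET than in PF (log2 fold change -0.39, SE 0.09, adjusted p = 0.03). It was higher in PF than in AD (0.58, SE 0.08, adjusted p = 0.000256). Its values were 181 to 237.7 in ET, 238.4 to 304 in PF and 161 to 200 in AD. PF overlapped neither other group, but its range nearly touched that of ET. No gene of the 4 other lists was called in any comparison: the remaining GABA-A and rho subunits (4 tested of 7), receptor-associated and postsynaptic proteins (17), GABA transport and metabolism (9 of 10) and glycine transport and metabolism (8).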

How the data were processed

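RNA-seq of 17 hippocampi was used. The authors filtered the reads, aligned them with Bowtie2 2.4.2 against mRatBN7.2 and counted fragments per gene with featureCounts 2.0.1 (minimum mapping quality 10, reads allowed to count for more than 1 feature; the strand setting was not given in the sources used here). The deposited values are observed fragment counts that the authors averaged over 3 technical replicates and did not normalize, so that, like expected counts, they need not be whole, although no model estimated them. Of 34322 genes, 28373 had a count.

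The averages were rounded, filtered with filterByExpr, scaled by TMM and tested with edgeR 4.0.16 (quasi-likelihood F test, R 4.3.3). P-values were adjusted by Benjamini-Hochberg over all genes tested. The SE is the absolute log2 fold change divided by the square root of F. Alternatives were DESeq2 1.42.0, median-of-ratios scaling, no filter, summed technical replicates, 14 libraries, side or sex as a covariate, 1 fit of the 3 diets, a replicate block, and leaving out each library. Both count tests were checked on simulated counts of independent libraries with the same dispersion for every gene. That check does not cover the unequal spread of genes or the shared litters here. Relations between libraries used log2(normalized count + 1) and 100000 permutations within diets, and ratios an exact permutation test (Python 3.11.15, scipy 1.17.1). No 2 libraries of a diet agreed within sampling noise (smallest chi-square per gene 8.64 over 40 pairs).

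Groups came from the sample labels. The animals 11f5 and 11f6 are named as in the count table because the labels do not tell which of 2 PF replicate numbers each has. Of the marker lists, 2 genes are not reported here and were left out of the list sums. The genes and lists were chosen with earlier results of these data known. Values (each ET library, and the lowest, median and highest of the 6 PF and 6 AD libraries) are given for the called genes, the 3 with the smallest p in each diet comparison and 12 chosen by role (Gad1, Gad2, Slc32a1, Gabra2, Gabra5, Gabrd, Gabbr1, Glrb, Gphn, Slc6a11, Slc12a2 and Slc12a5), and the others by range; in the relations between libraries, the pairs described were chosen after their values were seen. All 28 symbols matched the RefSeq gene list of GRCr8, used for neighbours and start regions (25 matched) and not for coordinates of the counts.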

Additional observations from a re-analysis of the deposited data

Results flagged for a closer look

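Among 89 sets of values of 1 gene or ratio in 1 diet group, 6 held a library whose gap to the nearest other exceeded the 95% critical value of Dixon's test, which chance alone gives in about 1 in 20 groups. In ET replicate 1, Gabra6 was at 23.3 normalized counts, against 4.84 to 6.12 in the other ET libraries. In ET replicate 3, Gabrg3 was at 62.8 (others 29.9 to 39.1), Slc6a11 at 1064 (644 to 720) and Abat at 4201 (3731 to 3841). In PF animal 11f6, Gabrg3 was at 75.7 (others 22.2 to 41.9) and Gabre at 10.3 (2.32 to 4.45). The summed thalamus and habenula marker list was highest in ET replicate 3, at 3542, against 1465 to 2869 in all other libraries. Within PF it was highest in animal 11f6, at 2838. The part of thalamic or habenular tissue in these values was not tested.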

How the results depend on the processing

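The count of called genes in ET against PF was 1 and fell to 0 with the replicate block. Leaving out 1 library gave 0 to 1, the 0 without ET replicate 5 or PF replicate 1. In PF against AD the count was 0 and rose to 3 with the replicate block (Gabra2 and Gabrb1 higher, Gabrd lower in PF), and leaving out 1 library gave 0 to 1, the 1 without AD replicate 3. Slc6a9 kept its direction in all 20 alternatives, from 0.27 to 0.39 on the log2 scale with adjusted p from 0.00111 to 0.129, the highest under the replicate block. The replicate numbers do not pair the rats: same-numbered libraries of ET and PF had deviations correlated between -0.07 and 0.58 (3 pairs), of ET and AD between -0.37 and 0.27, and of PF and AD between -0.04 and 0.23, so the block fit compares rats that share only a number. Slc32a1 in ET against PF changed sign to 0.067 without the 3 libraries the study left out, with an adjusted p of 0.84. Leaving out 1 library moved the Gad1 to Gad2 log2 ratio difference between -0.10 and 0.17 in ET against PF and between 0.0076 and 0.27 in ET against AD, and that of Slc12a5 to Slc12a2 in PF against AD between -0.14 and 0.016. The first and the last of these changed sign, and no ratio test passed in any alternative. The fit without the 2 AD libraries that go against their sex label, added after the data were seen, left 0 genes called in both comparisons with AD. No gene of the set reached the threshold of the study, and none was called in ET against AD, between the sexes or for the interaction, in any alternative run. A change of sign in which both values were smaller than their standard errors was not counted. The cause of these changes was not tested. The diet comparisons had 5 or 6 rats a group and the interaction 2 or 3. In the main fits Gabra6 and Glra3 were too low to test in any comparison, and Gabre and Glra1 in the diet comparisons.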
